A study of Mus musculus with 7 samples.

Results

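The genes described here are the 4 TEAD transcription factors, Tead1 to Tead4, and 6 genes that are widely used as readouts of the coactivator YAP: Ccn1, Ccn2, Ankrd1, Amotl2, Ajuba and Nuak2. They were taken by symbol from the deposited expression table and not by their values, and make up 10 of its 25461 genes. All 10 averaged at least 1 FPKM (fragments per kilobase of transcript at a common sequencing depth, so a level per transcript length) and so were among the 16095 genes tested.

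YAP and its paralog TAZ carry the output of the Hippo pathway. When the kinases MST1/2 and LATS1/2 are active, YAP and TAZ are phosphorylated and held in the cytoplasm. When the kinases are less active, YAP and TAZ enter the nucleus and bind TEAD proteins, which contact DNA and switch on genes for growth, cell shape and the extracellular matrix. SLMAP, a tail-anchored membrane protein, is an adaptor of the STRIPAK phosphatase complex, which removes phosphate from MST1/2. The comparison therefore asks whether the transcript levels of TEADs and YAP targets differ when SLMAP3 is absent.

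RNA was sequenced from 7 whole mouse embryos of the B6C3F1 strain at embryonic day 11.5, 3 of them SLMAP3 KO and 4 WT, each a library of its own, after the tail had been taken for genotyping. The KO is global: exon 3 of Slmap, flanked by loxP sites, was excised with a CMV-driven cre in an earlier generation, and the cleaved allele was then bred on without cre. The long isoform SLMAP3 is lost by this design, while the shorter SLMAP1 and SLMAP2 remain in the KO embryos. WT embryos carry 2 intact alleles. The labels do not say which embryos were littermates. They name the embryos KOAC8, KOAC9 or KOAC10 with a number, a prefix whose meaning is not given. The KO embryos were KOAC8-6, KOAC10-5 and KOAC10-8, and the WT embryos KOAC8-1, KOAC10-7, KOAC9-1 and KOAC10-2, and values below follow this order. The depth on genes was put at about 54400000 to 81800000 counts for an embryo, from the steps between low values.

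3 embryos stood apart from the others before any comparison. Afp, the most abundant of 10 liver markers, was at 5.18 FPKM in KO embryo KOAC10-5, 1.30 in WT embryo KOAC10-7 and 2.49 in WT embryo KOAC10-2. The KO embryos KOAC8-6 and KOAC10-8 held 255.0 and 308.2 FPKM of it, and the WT embryos KOAC8-1 and KOAC9-1 held 375.8 and 277.6 FPKM. The 3 low embryos belong to both genotypes and share the prefix KOAC10 with the high embryo KOAC10-8, so results are also given without them, from 2 KO and 2 WT embryos. Markers of heart, skeletal muscle, endothelium, red cells, neural progenitors, neurons, mesenchyme and epithelium were found in every embryo, and the trophoblast marker Prl3b1 did not exceed 0.841 FPKM in any. In such bulk samples, fewer cells of a type and less RNA per cell cannot be told apart.

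TEAD proteins bind DNA at the letters GGAATG, which read CATTCC on the opposite strand. The 250 bases before the RefSeq transcription start (build GRCm38.p6) were searched on both strands for Tead2, Tead3, Ccn1, Ankrd1, Amotl2 and Ajuba. Promoter entries for Tead1, Tead4, Ccn2 and Nuak2 were not used here. The letters were present in 12.6% of all 32851 promoter windows of this length, and in those of Ccn1, Ankrd1, Amotl2 and Ajuba, all 4 target genes with an entry. The windows of Ccn1 (chr3:145649986-145650235, minus strand) and Ajuba (chr14:54577662-54577911, minus strand) are shown whole because they overlap no annotated exon. They are written from 5′ to 3′ with the matches in capitals.
Ccn1: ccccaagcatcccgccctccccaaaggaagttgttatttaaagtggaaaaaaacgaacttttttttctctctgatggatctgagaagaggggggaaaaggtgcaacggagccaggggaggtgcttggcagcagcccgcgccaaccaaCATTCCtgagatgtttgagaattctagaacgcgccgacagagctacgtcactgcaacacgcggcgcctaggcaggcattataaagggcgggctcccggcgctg
Ajuba: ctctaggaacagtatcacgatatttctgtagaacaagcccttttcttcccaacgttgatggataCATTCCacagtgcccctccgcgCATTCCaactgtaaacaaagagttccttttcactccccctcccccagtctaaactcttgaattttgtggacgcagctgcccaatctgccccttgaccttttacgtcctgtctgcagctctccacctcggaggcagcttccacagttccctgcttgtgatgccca

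The match in Ccn1 begins 103 bases before the start, and those in Ajuba 186 and 164 bases before it. For Ankrd1 (minus strand) and Amotl2 (plus strand), whose windows overlap annotated exons, 26 bases around each match are shown. The first Ankrd1 match begins 210 bases before the start (chr19:36120039-36120064), the second 123 bases (chr19:36119952-36119977), and the Amotl2 match 65 bases (chr9:102717729-102717754).
Ankrd1, first: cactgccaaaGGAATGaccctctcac
Ankrd1, second: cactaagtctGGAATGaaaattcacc
Amotl2: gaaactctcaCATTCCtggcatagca

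Among the TEADs with an entry, Tead2 had no match, and Tead3, which has 3 annotated starts, had 1, 2 and 0 matches before them. The letters TGANTCA, bound by AP-1 factors that often sit beside TEADs, were in none of the windows of these 6 genes and in 6.75% of all windows. A match describes the letters of the window only.

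Slmap (chromosome 14, 26413168 to 26534931, minus strand, GENCODE M21 annotation of GRCm38) was examined first, as the targeted gene. KO embryos held 19.6, 16.0 and 16.6 FPKM of its transcripts, against 31.2, 23.9, 29.1 and 22.8 FPKM in WT embryos. No KO embryo reached the lowest WT embryo, and the KO mean was 65.1% of the WT mean. Its log2 fold change was -0.59 (SE 0.13, unadjusted p = 0.00221, adjusted p = 0.278 from limma), and over 15 alternatives its adjusted p ran from 0.0905 to 0.552. The targeted gene itself thus did not pass an adjusted p of 0.05, the threshold used for all genes tested. The order of the genotypes is that of the labels, and gene-level values such as these pool the isoforms.

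Tead2 was by far the most abundant TEAD, followed by Tead3, Tead1 and Tead4, and this order held in 7 of 7 embryos. Tead2, known for its broad expression in the early embryo and neural progenitors, averaged 301.7 FPKM, 11.2 times Tead3, which in turn averaged 1.33 times Tead1. Tead1 averaged 9.62 times Tead4, the factor best known for its part in trophectoderm. Tead2 supplied between 85.3% and 87.2% of the summed TEAD FPKM of an embryo, and Tead4 between 0.509% and 0.748%. The composition of the TEAD pool was close in the genotypes: the Tead2 share was 86.1% ± 0.670 (SD, n = 3) in KO embryos and 85.8% ± 0.967 (SD, n = 4) in WT embryos. Summed TEAD FPKM was 348.3 ± 10.9 (SD, n = 3) in KO and 353.2 ± 15.0 (SD, n = 4) in WT embryos, a difference smaller than either SD.

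**Figure D1:**
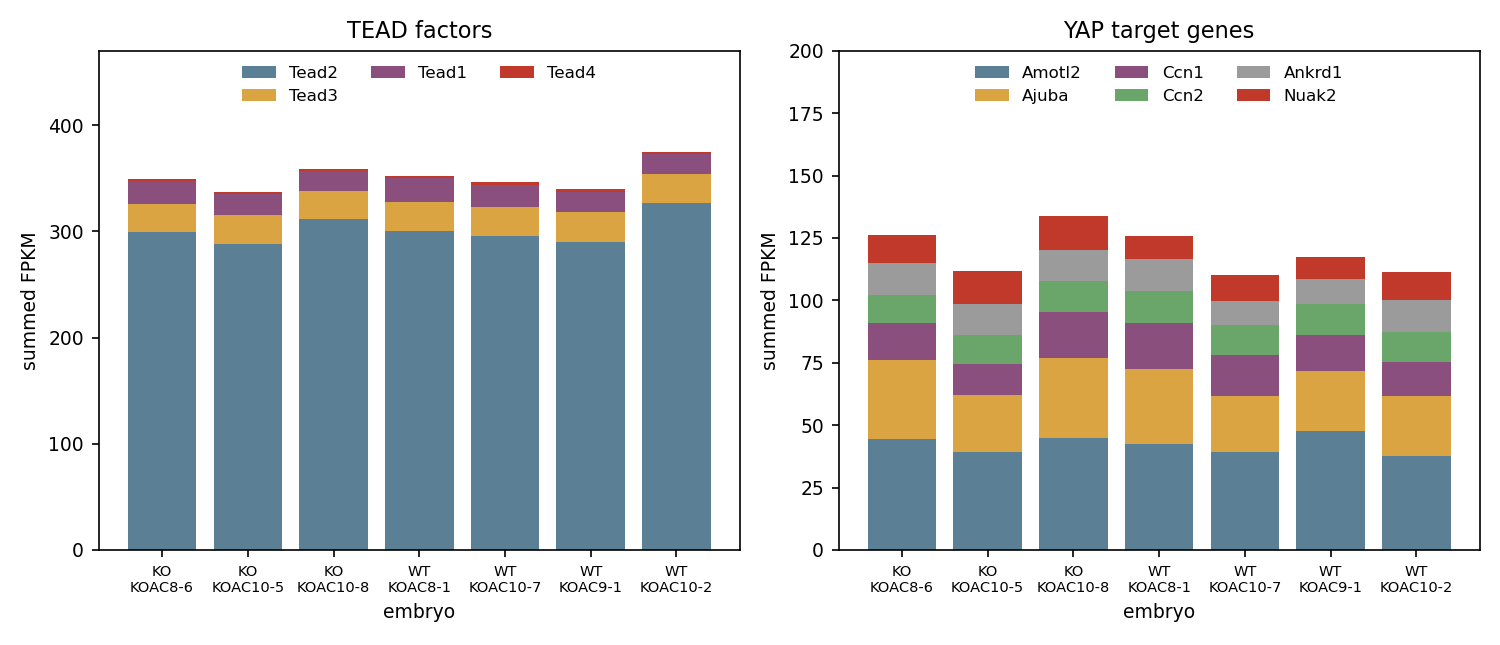
Stacked FPKM of the TEADs (left) and of the YAP targets (right) in each embryo, KO embryos first, with the height of a colour giving the FPKM of 1 gene. Tead2 fills 85.3% to 87.2% of every TEAD bar, and the target bars run from 110.0 FPKM in WT embryo KOAC10-7 to 133.7 FPKM in KO embryo KOAC10-8.

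Tead1 (chromosome 7, 112679318 to 112906807) was at 22.1, 19.6 and 18.7 FPKM in KO embryos and at 22.9, 20.8, 19.0 and 18.8 FPKM in WT embryos. Its highest values were in KOAC8-6 and KOAC8-1, the KO and the WT embryo of the same prefix, and the genotypes overlapped throughout. On the log2(FPKM + 1) scale used for all fold changes here, KO differed from WT by -0.02 (standard error, SE, 0.09, adjusted p = 0.961 from limma, adjusted over all 16095 genes by the Benjamini-Hochberg method).

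Tead2 (chromosome 7, 45215753 to 45233644) was at 299.8, 288.4 and 311.3 FPKM in KO embryos and at 300.5, 295.5, 289.7 and 326.5 FPKM in WT embryos. The lowest value was in KO embryo KOAC10-5 and the highest in WT embryo KOAC10-2, with the others intermixed. Its log2 fold change was -0.01 (SE 0.06, adjusted p = 0.942 from limma), with a 95% interval from -0.15 to 0.12. Tead2 was the most precisely counted of the 10 genes, with a counting error of 0.647% per embryo, so the interval reflects the spread between embryos.

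Tead3 (chromosome 17, 28331671 to 28350817) was at 25.7, 26.9 and 26.5 FPKM in KO embryos and at 27.1, 27.7, 28.2 and 27.1 FPKM in WT embryos. All KO embryos were below all WT embryos, though only 0.162 FPKM separated the highest KO from the lowest WT embryo, and Tead3 had the lowest spread within genotypes of the 10 genes, 2.17%. The KO mean of 26.3 ± 0.623 FPKM (SD, n = 3) was 95.7% of the WT mean of 27.5 ± 0.561 FPKM (SD, n = 4), a log2 fold change of -0.06 (SE 0.04, 95% interval -0.16 to 0.04, adjusted p = 0.610 from limma). The unadjusted p from limma was 0.202. The exact permutation test was two-sided, over the 35 splits of the embryos. It gave an unadjusted p = 0.0286, the lowest value possible with groups of 3 and 4. This value can be reached only where the genotypes do not overlap, so it adds little to that observation. When the FPKM of each embryo were rescaled to a common sum, the Tead3 values of the genotypes overlapped. Without the 3 embryos low in Afp, the difference was -0.08 (SE 0.08).

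Tead4 (chromosome 6, 128224288 to 128300823) was at 2.07, 1.86 and 1.95 FPKM in KO embryos and at 2.00, 2.42, 2.54 and 1.90 FPKM in WT embryos. The WT embryos KOAC10-7 and KOAC9-1 were above the rest, and the other WT embryos lay among the KO embryos. Its mean of 1.96 ± 0.103 FPKM (SD, n = 3) in KO against 2.22 ± 0.310 FPKM (SD, n = 4) in WT embryos corresponds to a log2 fold change of -0.11 (SE 0.10, 95% interval -0.34 to 0.11, adjusted p = 0.663 from limma). As the least abundant gene it had the largest counting error, 5.45% per embryo, and at this level the log2(FPKM + 1) scale understates a fold change.

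**Figure D2:**
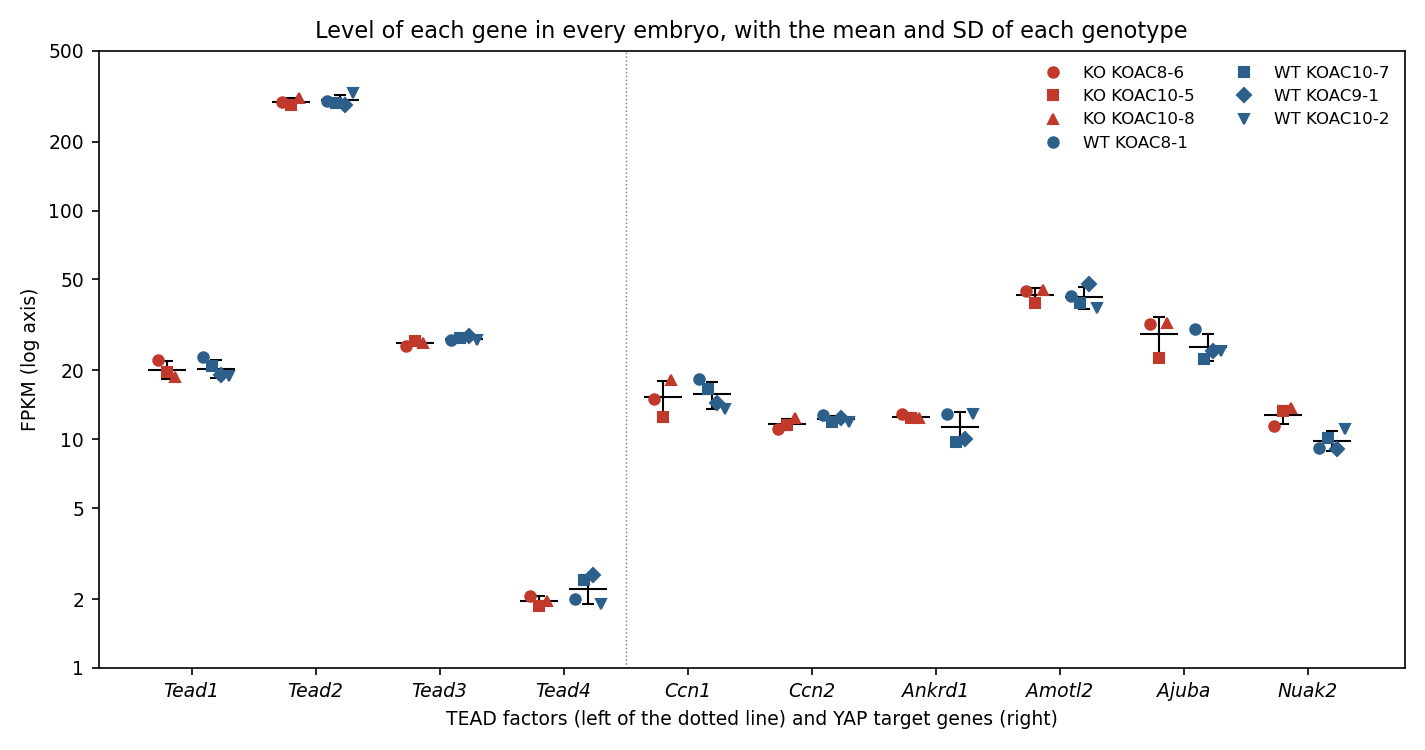
FPKM on a log axis for the TEADs (left of the dotted line) and YAP targets (right), with a symbol per embryo, KO in red and WT in blue, and bars for the mean and SD of each genotype. KO and WT symbols are intermixed except for Tead3, where the KO embryos lie just below the WT embryos, and Nuak2, where they lie above them.

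Among the targets, Amotl2 was the most abundant at a mean of 42.2 FPKM, followed by Ajuba at 26.9, Ccn1 at 15.5, Ccn2 at 12.0, Ankrd1 at 11.9 and Nuak2 at 11.1 FPKM. The order of Amotl2, Ajuba, Ccn1 and Ccn2 held in 7 of 7 embryos. Ccn2, Ankrd1 and Nuak2 could not be ordered beyond their spread: Ccn2 was above Ankrd1 in 2 of 7 embryos and Ankrd1 above Nuak2 in 4 of 7. All targets were below Tead2, and Tead4 was below every target in every embryo. Tead3 and Ajuba, at 27.0 and 26.9 FPKM, were in this order in 4 of 7 embryos.

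The matricellular proteins CYR61 and CTGF, now named CCN1 and CCN2, are the most used YAP readouts. Ccn1 (chromosome 3, 145646976 to 145649981) was at 14.9, 12.5 and 18.2 FPKM in KO embryos and at 18.3, 16.5, 14.4 and 13.6 FPKM in WT embryos. The lowest embryo and the second highest were both KO. Its log2 fold change was -0.05 (SE 0.14, adjusted p = 0.924 from limma) and its 95% interval, -0.38 to 0.29, was among the widest of the 10, as Ccn1 varied by 15.8% within genotypes. The difference was -0.28 between the single KO and WT embryos with the prefix KOAC8 and 0.01 between the 2 KO and 2 WT embryos with the prefix KOAC10. Without the 3 embryos low in Afp it was 0.02 (SE 0.16).

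Ccn2 (chromosome 10, 24595442 to 24598683) was at 11.0, 11.6 and 12.4 FPKM in KO embryos and at 12.8, 11.9, 12.3 and 11.9 FPKM in WT embryos. KO embryo KOAC10-8 was above 3 of the 4 WT embryos, while the other KO embryos were below them all. The mean was 11.7 ± 0.660 FPKM (SD, n = 3) in KO embryos against 12.2 ± 0.420 FPKM (SD, n = 4) in WT embryos, or -0.06 on the log2 scale (SE 0.06, 95% interval -0.20 to 0.07, adjusted p = 0.690 from limma). The antisense gene Gm15270 shares 23.2% of the Ccn2 exon bases, and as the TruSeq RNA v2 kit does not mark strand, reads from this stretch cannot be told apart. Gm15270 itself had mean levels of 2.22 FPKM (KO) and 3.02 FPKM (WT).

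Ankrd1, a muscle ankyrin repeat protein of heart and stretched muscle (chromosome 19, 36111961 to 36120099), was at 12.9, 12.3 and 12.4 FPKM in KO embryos and at 12.9, 9.69, 9.98 and 12.9 FPKM in WT embryos. The WT embryos fell into a high and a low pair, and the KO embryos were nearer to the high pair. Its log2 fold change was 0.15 (SE 0.11, 95% interval -0.12 to 0.41, adjusted p = 0.635 from limma). Without the 3 embryos low in Afp it was 0.15 (SE 0.14). Of 8 heart markers, 3 had an unadjusted p under 0.05, all higher in KO embryos, where 5.27% of all genes tested were: Myh6, Myh7 and Myl7, with log2 fold changes of 0.40, 0.26 and 0.42 and adjusted p-values of 0.432, 0.403 and 0.428 from limma. Summed over the list, heart markers were at 557.0, 622.1 and 707.6 FPKM in KO embryos and at 517.7, 500.6, 527.3 and 600.1 FPKM in WT embryos, with Myl2 the most abundant. Their part in the Ankrd1 values was not tested.

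Amotl2, an angiomotin that binds YAP at cell junctions (chromosome 9, 102716672 to 102733418), was at 44.3, 39.4 and 44.8 FPKM in KO embryos and at 42.3, 39.3, 47.6 and 37.5 FPKM in WT embryos. Both extremes were WT embryos. Its log2 fold change was 0.04 (SE 0.09, 95% interval -0.17 to 0.26, adjusted p = 0.886 from limma), and -0.01 (SE 0.09) without the 3 embryos low in Afp.

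Ajuba, a LIM protein that restrains LATS kinases (chromosome 14, 54567472 to 54577558, the chromosome of Slmap), was at 31.7, 22.6 and 32.3 FPKM in KO embryos and at 30.3, 22.4, 24.3 and 24.4 FPKM in WT embryos. A high set of 2 KO and 1 WT embryos stood over a low set of 1 KO and 3 WT embryos. Its log2 fold change was 0.17 (SE 0.15, 95% interval -0.18 to 0.52, adjusted p = 0.671 from limma), and single embryos moved it. It was 0.085 without KO embryo KOAC10-8 and 0.097 without KO embryo KOAC8-6 (unadjusted p = 0.626 and 0.589 from limma). Without KO embryo KOAC10-5 the genotypes did not overlap and it was 0.33 (unadjusted p = 0.0292, adjusted p = 0.258 from limma). In that fit 2630 of 16076 genes tested had an unadjusted p under 0.05, against 1846 of 16095 with all 7 embryos. KOAC10-5 is among the embryos low in Afp. Without all 3 of these the difference was 0.23 (SE 0.13, adjusted p = 0.560 from limma), and the 2 KO and 2 WT embryos did not overlap. Groups this small often fail to overlap by chance, and no share over all genes is given for them.

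Nuak2, a kinase of the AMPK family that acts on actomyosin (chromosome 1, 132316126 to 132333488), differed most between the genotypes. It was at 11.4, 13.3 and 13.7 FPKM in KO embryos and at 9.14, 10.1, 9.02 and 11.1 FPKM in WT embryos. Every KO embryo was above every WT embryo, with 0.329 FPKM between the lowest KO and the highest WT embryo. The KO mean of 12.8 ± 1.20 FPKM (SD, n = 3) was 130% of the WT mean of 9.85 ± 0.979 FPKM (SD, n = 4), a log2 fold change of 0.35 (SE 0.09, 95% interval 0.13 to 0.57). This had an unadjusted p = 0.00726 and did not pass adjustment over all genes tested (adjusted p = 0.307 from limma). By the exact permutation test, 2 of the 35 splits gave a difference as large (two-sided, unadjusted p = 0.0571). For the genes that overlapped between the genotypes, the same test gave an unadjusted p from 0.286 (Ccn2) to 0.857 (Tead1). The Nuak2 difference was 0.29 within the prefix KOAC8, 0.32 within KOAC10 and 0.42 (SE 0.12, adjusted p = 0.414 from limma) without the 3 embryos low in Afp.

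**Figure D3:**
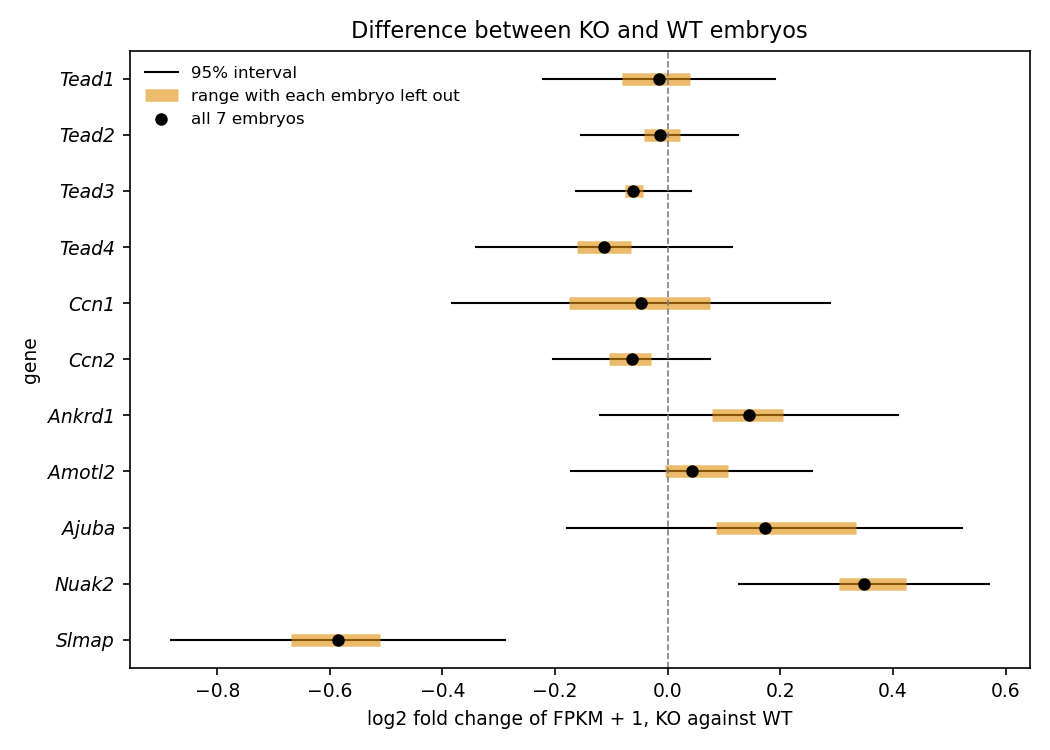
Log2 fold change of FPKM + 1 in KO against WT embryos for each gene and for Slmap (dots), with the 95% interval (lines) and the range of estimates with each embryo left out (orange). The intervals of 9 of the 10 genes include 0. That of Nuak2 runs from 0.13 to 0.57, and Nuak2 was between 0.30 and 0.42 with any embryo left out.

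Counted together, 0 of the 10 genes had an adjusted p under 0.05, against 0.0373% of all genes tested (6 of 16095, and 0.0186% in either direction alone). An unadjusted p under 0.05 from limma was found for 1 of the 10, Nuak2, where 11.5% of all genes tested had one and 5.27% had one with a higher KO mean. KO and WT values did not overlap for 2 of the 10, Tead3 and Nuak2, against 11.6% of all genes tested. By direction, 1 of the 10 was higher without overlap against a share of 5.61% and 1 was lower against 5.98%. Counts of 1 and 2 among 10 genes are about the share of the whole table. The median absolute log2 fold change of the 10 was 0.063, against 0.093 over all genes tested. All 4 TEADs were lower in the mean of KO embryos, by 0.01 to 0.11, and 4 of the 6 targets were higher, by 0.04 to 0.35. Summed over the 6 targets, FPKM was 124.0 ± 11.1 (SD, n = 3) in KO and 116.1 ± 7.19 (SD, n = 4) in WT embryos, a difference larger than the SD of the WT embryos and smaller than that of the KO embryos. Without the 3 embryos low in Afp, the genes not yet given so were at -0.03 (Tead1), 0.05 (Tead2), -0.11 (Tead4) and -0.10 (Ccn2), and Slmap at -0.71. The bounds that these embryos set differ by gene. For Tead2 and Tead3 the 95% intervals reached no further from 0 than -0.15 and -0.16 on the log2 scale, while that of Ajuba reached 0.52.

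**Figure D4:**
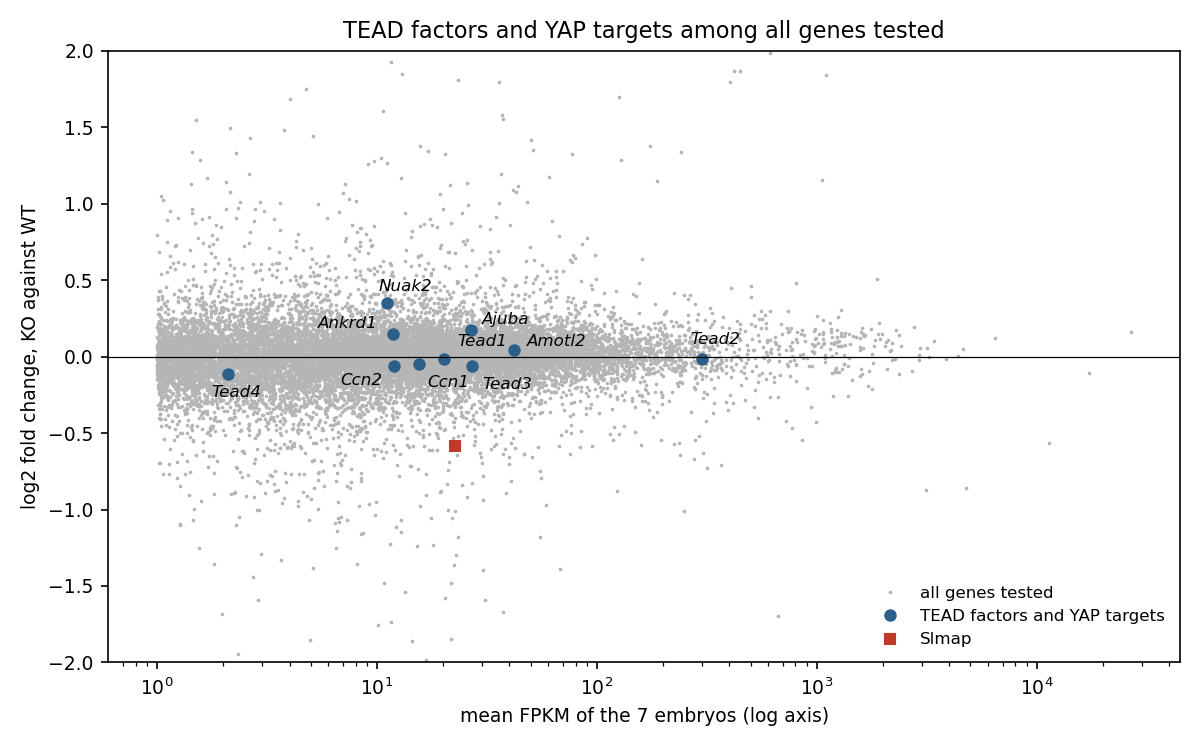
Mean FPKM over the 7 embryos (log axis) against the log2 fold change of KO over WT embryos for all genes tested (grey), the TEADs and YAP targets (blue) and Slmap (red), with 56 genes beyond ±2 not drawn. The blue points lie in the grey band, from -0.11 for Tead4 to 0.35 for Nuak2.

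The embryos did not order by genotype over these genes. The level of each gene was centred and scaled to z-scores on the log2(FPKM + 1) scale, and embryos were compared by Euclidean distance. The closest were the WT embryos KOAC10-7 and KOAC9-1, at a distance of 3.03. Next came KO embryo KOAC10-5 with WT embryo KOAC10-2, at 3.31, and KO embryo KOAC10-8 with WT embryo KOAC8-1, at 3.79. Both of the latter pairs join a KO with a WT embryo. No embryo was high or low in all genes: WT embryos KOAC8-1 and KOAC9-1 were each the highest in 3 genes, and KO embryo KOAC10-5 was the lowest in 3.

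**Figure D5:**
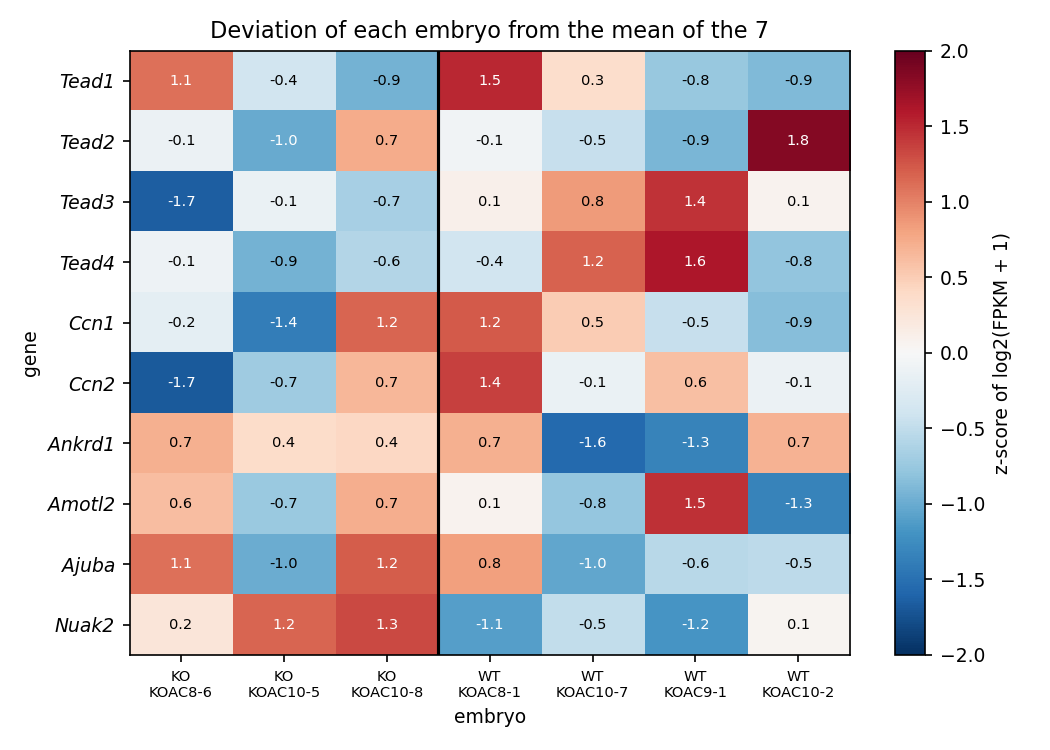
Z-score of log2(FPKM + 1) for each gene and embryo, KO embryos left of the black line. Only the bottom row, Nuak2, has all KO embryos above all WT embryos, and only the row of Tead3 has them all below. In the row of Ankrd1, WT embryos KOAC10-7 and KOAC9-1 are at -1.6 and -1.3.

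The rest of the Hippo pathway was measured alongside. Of 15 upstream genes, the kinases, scaffolds and activators from Stk3 and Stk4 (MST2 and MST1) to Nf2 and Frmd6, 15 were tested and 0 had an unadjusted p under 0.05 from limma, against 11.5% of all genes tested, with a median log2 fold change of 0.02. Their most abundant member, Map4k4, an MST-like activator of LATS, was at 178.8 ± 4.16 FPKM (SD, n = 3) in KO embryos against 166.0 ± 7.20 FPKM (SD, n = 4) in WT embryos (log2 fold change 0.11, adjusted p = 0.472 from limma). It was the 1 gene of the 15 with KO values that did not overlap the WT values, against a share of 11.6% of all genes tested. Yap1 was at 63.6 ± 3.13 FPKM (SD, n = 3) in KO embryos against 60.2 ± 2.38 FPKM (SD, n = 4) in WT embryos, and Wwtr1, which encodes TAZ, at 17.4 ± 0.722 and 18.5 ± 0.955 FPKM. The transcripts of both coactivators summed to 80.9 ± 3.16 FPKM (SD, n = 3) in KO embryos against 78.7 ± 3.33 FPKM (SD, n = 4) in WT embryos. Neither transcript reports the phosphorylation or the place of the protein.

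The other cofactors of TEADs are the Vestigial-like proteins, which bind them at the surface that YAP uses. Of 6 cofactor genes, YAP and TAZ included, 5 were tested and 2 had an unadjusted p under 0.05, both lower in KO embryos, where 6.19% of all genes tested were. Vgll2, a cofactor of skeletal muscle development, was at 3.29, 3.85 and 2.87 FPKM in KO embryos and at 4.72, 4.80, 6.74 and 4.48 FPKM in WT embryos (log2 fold change -0.50, SE 0.14, adjusted p = 0.318 from limma). Vgll3 was at 3.44, 3.15 and 2.13 FPKM in KO embryos and at 4.32, 4.86, 6.60 and 3.92 FPKM in WT embryos (log2 fold change -0.60, SE 0.18, adjusted p = 0.347 from limma). For both, all KO values lay under all WT values, as they did for 5.98% of all genes tested. Skeletal muscle markers had values in the same direction: 6 of 9 tested had an unadjusted p under 0.05, all with lower KO means, against the same 6.19%, and the list had a median of -0.76 on the log2 scale. The 6 were Myod1 (-0.76), Myog (-1.01), Myh3 (-1.23), Myh8 (-0.77), Chrna1 (-0.54) and Chrng (-0.55), the first 2 of which are regulators of myoblast differentiation, with adjusted p-values from 0.293 to 0.406 from limma. Summed over all 10 listed muscle markers, FPKM was 115.4, 116.2 and 83.9 in KO embryos and 157.9, 143.2, 202.0 and 139.6 in WT embryos. Tnni1, which is not among the 6, was the most abundant, and 0 markers were at 0 in all embryos. The part of muscle content in the Vgll2 and Vgll3 values was not tested.

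Of 11 relatives of the target genes, 7 were tested and 2 had an unadjusted p under 0.05, both lower in KO embryos, against a share of 6.19% among all genes tested. Amot, the X-linked angiomotin, was at 32.1 ± 3.64 FPKM (SD, n = 3) in KO embryos against 40.4 ± 2.85 FPKM (SD, n = 4) in WT embryos (log2 fold change -0.33, SE 0.09, adjusted p = 0.312 from limma), whereas Amotl2 had a log2 fold change of 0.04. Ccn4, a Wnt-induced matricellular gene, was at 2.77 ± 0.950 FPKM (SD, n = 3) in KO embryos against 4.53 ± 0.733 FPKM (SD, n = 4) in WT embryos (log2 fold change -0.57, adjusted p = 0.365 from limma). Nuak1, the closest relative of Nuak2, was at 12.0 ± 0.828 FPKM (SD, n = 3) in KO embryos against 13.3 ± 0.526 FPKM (SD, n = 4) in WT embryos, or -0.14 on the log2 scale (adjusted p = 0.462 from limma), opposite in sign to that of Nuak2. It is named beside Nuak2 after its values were seen.

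A published signature of 22 YAP and TAZ targets holds 17 further genes, of which 16 were tested. Of these, 1 had an unadjusted p under 0.05, against 11.5% of all genes tested: Tgfb2, a growth factor of mesenchyme. It was at 15.6, 19.0 and 14.3 FPKM in KO embryos and at 19.9, 23.2, 22.3 and 20.2 FPKM in WT embryos (log2 fold change -0.38, SE 0.10, adjusted p = 0.312 from limma). The median of the 16 was -0.10, with 5 higher and 11 lower in KO embryos, against a median of 0.01 over all genes tested. Summed over the 17 genes, FPKM was 217.6, 220.4 and 201.0 in KO embryos and 232.4, 238.2, 249.6 and 222.6 in WT embryos. This sum was lower in KO embryos, whereas that of the 6 targets had the higher mean in KO embryos. Igfbp3 was the most abundant, at 37.6 ± 6.79 FPKM (SD, n = 3) in KO embryos against 45.5 ± 4.66 FPKM (SD, n = 4) in WT embryos (adjusted p = 0.481 from limma). Mesenchyme markers had values in this direction too: 4 of 6 had an unadjusted p under 0.05, all with lower KO means (Pdgfra, Col1a1, Col3a1 and Col1a2), against 6.19% of all genes tested, and the median of the 6 was -0.33 on the log2 scale. The other members, the transcription factors Prrx1 and Twist1, were at -0.06 and 0.05 (adjusted p = 0.747 and 0.757 from limma) and overlapped between the genotypes. The sum of the 6, led by Col3a1, was 701.2, 793.8 and 605.4 FPKM in KO embryos and 849.7, 861.3, 931.6 and 823.9 FPKM in WT embryos, with no overlap between the genotypes. Their part in the Tgfb2, Amot and Ccn4 values was not tested.

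Neural progenitor markers and immediate early genes had values in the direction of Nuak2. They were not alone in this: 8 of 8 heart, 5 of 7 endothelial and 5 of 6 epithelial markers were higher in KO embryos too. Of 7 neural progenitor markers, 6 had an unadjusted p under 0.05, all with higher KO means (Sox2, Pax6, Nes, Sox1, Hes5 and Sox3), against 5.27% of all genes tested, and the median of the list was 0.44 on the log2 scale. Pax6, for example, was at 25.9, 31.7 and 34.3 FPKM in KO embryos and at 21.1, 19.5, 20.8 and 23.8 FPKM in WT embryos (log2 fold change 0.50, adjusted p = 0.274 from limma). Summed over all 7 markers, FPKM was 660.7, 728.1 and 740.3 in KO embryos and 597.8, 601.5, 643.6 and 682.6 in WT embryos. The largest part of this sum, Fabp7, had a log2 fold change of -0.02. Immediate early genes respond to handling as well as to growth factors. Of 8 tested, 5 had an unadjusted p under 0.05, all with higher KO means (Fos, Junb, Ier2, Atf3 and Nr4a1), against the same 5.27%. Among them, Fos was low and did not exceed 1.70 FPKM in any embryo. Atf3 was at 7.45 FPKM in KO embryo KOAC10-8, against 2.16 and 1.62 FPKM in the other KO embryos and 0.945 to 1.51 FPKM in WT embryos. The median of the 8 was 0.39 on the log2 scale. Summed over all 9 listed genes and led by Jun, FPKM was 96.1, 93.9 and 120.3 in KO embryos and 78.5, 84.7, 76.4 and 92.5 in WT embryos. The part of any of these lists in the Nuak2 values was not tested.

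The other marker lists gave the following. Of 10 liver markers, Ttr, a thyroid hormone carrier also made by the choroid plexus, had an unadjusted p under 0.05, against 11.5% of all genes tested. Its log2 fold change was -1.40 (adjusted p = 0.0891 from limma). Ttr was at 14.4, 15.3 and 15.1 FPKM in KO embryos and at 46.4, 32.3, 53.1 and 35.3 FPKM in WT embryos. Afp (SE 2.34) and Alb (SE 2.19) varied widely with the 3 low embryos, so the count over this list says little. Of 9 red cell markers, 5 had an unadjusted p under 0.05, all lower in KO embryos, against 6.19% of all genes tested: Hbb-y, Hba-a1, Hba-a2, Hbb-bt and Hbb-bs. The embryonic globin Hbb-bh1 differed in the opposite sense, by 0.51 on the log2 scale (SE 0.31, adjusted p = 0.555 from limma), and overlapped between the genotypes. Summed over all 9 red cell markers and led by Hbb-y, FPKM was 19940, 16604 and 21314 in KO embryos and 29961, 24345, 31707 and 31542 in WT embryos. Of 7 endothelial markers, Kdr and Pecam1 did, against 5.27% of all genes tested that were higher in KO embryos, with log2 fold changes of 0.19 and 0.12 (adjusted p = 0.286 and 0.405 from limma). Cdh5, the most abundant endothelial marker, had -0.01. No marker of neurons (6 tested) or epithelium (6 tested) and no mitochondrial transcript (8 tested) had an unadjusted p under 0.05. Their most abundant genes were Tubb3, at 327.7 ± 46.6 FPKM (SD, n = 3) in KO embryos against 348.2 ± 37.0 FPKM (SD, n = 4) in WT embryos, Krt5, with a log2 fold change of -0.34 (SE 0.31), and mt-Co2, with 0.05 (SE 0.17).

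The genes with profiles over the 7 embryos most like each of the 10 were found by the distance between z-scores, where 0 is identical and 4.90 the largest possible, among 11505 candidates that averaged 5 FPKM or more (11506 for Tead4). The distances are a description over 7 embryos, with no test. Nuak2 had the closest neighbour of the 10, Mpped1, at a distance of 0.26. Mpped1 was at 6.33, 7.26 and 7.50 FPKM in KO embryos and at 4.55, 5.35, 4.69 and 5.85 FPKM in WT embryos, followed by Efnb2, the ligand ephrin-B2, at 0.38. The neighbours of Tead3 were Cd248, a gene of mesenchyme and pericytes, at 0.34 and Gosr2 at 0.52. Cd248 was at 15.6, 18.7 and 17.0 FPKM in KO embryos and at 19.5, 20.7, 22.4 and 19.5 FPKM in WT embryos. The neighbours of Ankrd1 were the small RNA genes Gm25072 and Gm22398, at 0.44 and 0.47. Both are listed at 0 in the WT embryos KOAC10-7 and KOAC9-1, where Ankrd1 was low. For the other genes, the nearest were Gm11628 and Zfp275 (Tead1), Mast2 and Dctn2 (Tead2), Efr3a and Sh2b2 (Tead4), Rfk and Wdr83 (Ccn1), Eif2b1 and Bcap29 (Ccn2), Pggt1b and Ssr1 (Amotl2), and Mcph1 and Telo2 (Ajuba), at distances from 0.35 to 0.86. None of the 20 neighbours was itself one of the 10 genes.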

How the data were processed

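The authors deposited 1 table of FPKM per gene and embryo, made from TruSeq RNA v2 libraries. The submitters' processing notes name Salmon, DESeq2, MultiQC and the build GRCm38. The table also holds a mean signal per gene, the normalized count averaged over embryos by the authors, used here only for depth. Its 4 columns of the authors' own comparison (fold change, its error, p and adjusted p) were not used, and 0 FPKM columns were left without an embryo.

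Depth relative to the average, 0.81 to 1.21, came from the steps between low FPKM, as whole reads give them. Genes averaging 1 FPKM or more were tested on log2(FPKM + 1) with limma 3.58.1 in R 4.3.3 (eBayes with trend, no covariate, Benjamini-Hochberg threshold 0.05), a fit tested on simulated data. Single values were compared by exact permutation, and all counts of genes with an unadjusted p under 0.05 are from limma. The embryos are separate animals, numbered within groups in accession order.

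Named were the 10 genes, Slmap, genes of each list with an unadjusted p under 0.05 or else its most abundant gene, the most abundant gene of each marker list, and the 2 nearest profiles per gene. Nuak1, Yap1, Wwtr1, Igfbp3, Jun, Hbb-bh1, Prrx1, Twist1 and Gm15270 were named after their values were seen. Genes and lists were chosen with earlier results of these data known. Alternatives were a pseudocount of 0.1, no filter, a minimum mean of 5 FPKM, median-ratio and common-sum scaling, the embryo prefix as a block, Afp as a covariate, and leaving out embryos. Positions are from GENCODE M21, promoters from RefSeq.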

Additional observations from a re-analysis of the deposited data

Results flagged for a closer look

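In 61 groups of 4 WT embryos examined, 3 held an embryo far from the rest, where chance gives about 1 in 20, and 0 of the 10 genes was among them. Ccn4 was lowest in WT embryo KOAC10-2, at 3.44 FPKM against 4.77 in the next, and this gap was 0.853 of the range. Sox3 was highest in WT embryo KOAC10-2, at 17.8 FPKM against 12.5 in the next, a gap of 0.933 of the range. Vgll2 was highest in WT embryo KOAC9-1, at 6.74 FPKM against 4.80 in the next, a gap of 0.860 of the range.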

How the results depend on the processing

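Across the alternatives run, 0 of the 10 genes passed an adjusted p of 0.05. The number of all genes passing was 6. It was 4 at a minimum mean of 5 FPKM, 8 with the common sum and 10 with Afp as a covariate. Without the 3 embryos low in Afp it was 17, and with each embryo left out 7 to 12, highest without WT embryo KOAC8-1. Nuak2 kept its direction and an unadjusted p under 0.05 from limma in 15 of 15 alternatives. Its log2 fold changes ran from 0.30 to 0.42 and its adjusted p-values from 0.254 to 0.629. Of the 10, 1 to 2 had an unadjusted p under 0.05 from limma with each embryo left out. The second was Ajuba, without KO embryo KOAC10-5. Without KOAC10-5, 2630 of 16076 genes tested had one, against 1846 of 16095 with all 7 embryos. With the other embryos left out 1 at a time, 1255 to 1686 did. The count without overlap was 2, and 1 with the common sum (Nuak2). It was 3 without the 3 embryos low in Afp (Tead3, Ajuba and Nuak2). With each embryo left out it was 2 to 3, where Ajuba joined without KOAC10-5 and Ccn2 without KOAC10-8. Smaller groups more often fail to overlap by chance, and the share of 11.6% over all genes tested is for all 7 embryos. Tead3, Tead4, Ccn2, Ankrd1, Ajuba and Slmap kept their direction wherever they could be fitted, but not their size: with each embryo left out, Tead3 ran from -0.076 to -0.043, Tead4 from -0.16 to -0.066 (without WT embryo KOAC9-1), Ccn2 from -0.10 (without KO embryo KOAC10-8) to -0.029 (without KO embryo KOAC8-6), Ankrd1 from 0.079 (without WT embryo KOAC10-7) to 0.21, Ajuba from 0.085 (without KO embryo KOAC10-8) to 0.33 (without KO embryo KOAC10-5) and Slmap from -0.67 to -0.51. Tead4 had no value at a minimum of 5 FPKM. Directions near 0 reversed: Amotl2 was -0.00025 with Afp as a covariate, and without the 3 embryos low in Afp Amotl2 was -0.011, Tead2 0.050 and Ccn1 0.020. With each embryo left out, Tead1 ran from -0.081 to 0.039, Tead2 from -0.042 to 0.022, Ccn1 from -0.18 to 0.076 and Amotl2 from -0.0057 to 0.11. The cause of these reversals was not tested. The labels give KO and WT embryos no shared replicate numbers, but they share the prefixes KOAC8 and KOAC10. With the embryo prefix as a block, 7 of all genes and 0 of the 10 passed an adjusted p of 0.05, and Nuak2 was at 0.31 (adjusted p = 0.505 from limma).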
